A study of Mus musculus with 6 samples.

Results

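AP-1 is a dimeric transcription factor built from proteins of the FOS, JUN, ATF and BATF families, which pair through a leucine zipper and bind DNA through the adjoining basic region. FOS proteins need a partner and usually pair with a JUN protein, whereas JUN proteins can also pair with each other. Several of these genes are immediate early genes, transcribed within minutes of growth factor, cytokine, wounding or stress signals that run through the ERK and JNK kinases, and in intestinal epithelium JUN is known as an effector of Wnt and JNK signalling. The transcripts of 10 AP-1 genes (Fos, Fosb, Fosl1, Fosl2, Jun, Junb, Jund, Atf3, Batf and Batf2) were taken by gene symbol from the count table. All 10 were found among its 23393 named genes, and all 10 passed the filter on low counts (at least 10 counts in at least 3 libraries).

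All libraries were made from poly(A) RNA of the small intestine of C57BL/6 mice, which were 12 weeks old. The 3 WT intestine libraries came from mice that were Villincre-negative and carried the PKClambda f/f and PKCzeta f/f alleles. The 3 DKO tumour libraries came from small intestinal tumours of Villincre-positive mice with the same floxed alleles, in which the Villin promoter drives the recombinase in intestinal epithelium, so that stromal and immune cells keep both atypical protein kinase C genes. Genotype and tissue (tumour against intestine) differ together and cannot be told apart. The labels name a mouse for each library but not the position along the gut, and whether any libraries share a mouse is not stated, so p-values measure the spread between these libraries.

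Library totals ranged from 12491561 to 15799269 counts over named genes. Levels below are CPM (counts scaled to 1000000 per library on the TMM scale, which corrects library totals for differences in composition). A log2 fold change compares DKO tumours with WT intestine, is positive where tumours were higher, and is given with its standard error (SE). It was tested with edgeR's quasi-likelihood test over 13866 genes. A gene is said to have risen or fallen at a Benjamini-Hochberg adjusted p under 0.05. Prkcz was at 70.1, 69.8 and 60.8 CPM in WT intestine 1 to 3 and at 19.3, 16.45 and 14.7 CPM in DKO tumours 1 to 3 (log2 fold change -1.99, SE 0.152, edgeR adjusted p = 0.000233). Prkci was at 53.3, 80.7 and 77.7 CPM against 98.1, 80.35 and 103 CPM, so whole-gene counts of Prkci do not show the labelled deletion. The epithelial markers Epcam, Cdh1, Vil1, Krt20 and Cldn7 summed to between 9947 and 13070 CPM in WT intestine and between 6377 and 8594 CPM in tumours. Of these 5, only Vil1 fell (log2 fold change -1.07, SE 0.239), a call that ended without DKO tumour 3. Cdh1 went the other way without passing the test, at 841, 825 and 798.5 CPM against 1001, 1247 and 984 CPM. In bulk tissue, fewer cells of a type and less RNA per cell cannot be told apart.

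Of the 10 genes, 1 rose in DKO tumours (Fosl1), 2 fell (Atf3 and Fosl2) and 7 did not pass the test. Among all genes tested, 15.9% rose and 13.8% fell (29.7% in either direction), so with 10 genes neither count stands far from the background. The median log2 fold change was -0.21 over the 10 genes and 0.02 over all genes tested. In CPM on the TMM scale, the groups did not overlap for 4 of the 10 (Fosl1 higher, and Fosl2, Jun and Atf3 lower). Among all genes tested this held for 25.1% higher and 22.9% lower (48% in either direction).

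Upstream sequences were searched because several AP-1 genes, Fos and Jun first among them, are known to be regulated through cAMP response elements, serum response elements or AP-1 sites in their own promoters. RefSeq promoters (GRCm38.p6, 250 bases before to 50 bases after the start) matched 8 of the 10 genes. Fosl1 and Batf2 had no entry. The last 120 bases before the start are shown for Fos and Jun, the founding members, and for Atf3 and Fosl2, both of which fell. Each is written 5′ to 3′ on the gene's strand, and the capitals mark the core of the cAMP response element (TGACG, or CGTCA where it is on the opposite strand), the TATA box (TATAAA), the CCAAT box (CCAAT) and an AP-1 site variant (TGACATCA).
Fos, chr12:85473770-85473889, plus strand: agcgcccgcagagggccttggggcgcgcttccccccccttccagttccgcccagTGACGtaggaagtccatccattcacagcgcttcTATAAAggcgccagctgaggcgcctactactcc
Jun, chr4:95052223-95052342, minus strand: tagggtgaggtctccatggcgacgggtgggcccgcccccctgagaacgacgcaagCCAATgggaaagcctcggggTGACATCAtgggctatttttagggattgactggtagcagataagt
Atf3, chr1:191183334-191183453, minus strand: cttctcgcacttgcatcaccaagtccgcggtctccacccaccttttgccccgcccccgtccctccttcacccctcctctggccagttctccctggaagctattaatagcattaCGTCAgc
Fosl2, chr5:32136352-32136471, plus strand: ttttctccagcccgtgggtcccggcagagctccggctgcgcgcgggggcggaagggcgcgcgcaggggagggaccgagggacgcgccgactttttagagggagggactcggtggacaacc

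In the 300-base promoters, searched on both strands, TGACG was found in Fos, Fosb, Junb, Atf3 and Batf, and 20.8% of all 32817 promoters hold it. In Fos it lay 66 and 129 bases upstream of the start, in Fosb 60, in Batf 98, in Junb 106, and in Atf3 7 bases upstream on the opposite strand. The TGACATCA variant was found in Jun alone among the 8 genes, 45 bases upstream, and 3.62% of all promoters hold it. TATAAA was found in Fos, 33 bases upstream, and in Junb at the start itself (13.6% of all promoters), and CCAAT in Jun, Junb and, past the start, Atf3 (37.4%). The AP-1 site pattern TGANTCA, where N is any base (7.81% of all promoters), was found in none of the 8. Nor was the full cAMP response element TGACGTCA, which contains TGACG (1.79%), or the CArG box bound by SRF (1.63%). No match says only that these letters are not in this window. The 2 genes that fell do not share any of the searched motifs in these windows, since Fosl2 held none. Only 1 start per gene was searched. For both genes it lies inside the span given by GENCODE M21, which begins further upstream (Atf3 at 191218039 on the minus strand, Fosl2 at 32135801). Sequence before those outer ends was not searched.

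Fosl1 encodes FRA-1, a FOS family protein without the strong transactivation domain of FOS, which ERK signalling stabilises and which is widely studied in carcinoma invasion. It gave 11, 5 and 15 reads in WT intestine 1 to 3 and 69, 178 and 88 reads in DKO tumours 1 to 3. These are 1.04, 0.393 and 0.974 CPM against 4.11, 11.95 and 6.52 CPM. WT intestine 2 gave fewer than 10 reads, so Fosl1 met the filter on low counts only with the tumours counted. Every tumour lay above every WT library, and DKO tumour 2 stood highest. The log2 fold change was 3.22 (SE 0.508, edgeR adjusted p = 0.00362), a 9.30-fold rise, and it ranked 205 from the top of the 13866 genes tested by log2 fold change. Without DKO tumour 2 the log2 fold change was 2.71, and the rise was called without any 1 of the libraries (log2 2.71 to 3.52, adjusted p 0.00189 to 0.0173). Fosl1 (chromosome 19, 5447547 to 5455946, plus strand) shares 1163 of its 2033 exonic bases with Ccdc85b on the opposite strand in GENCODE M21. Whether reads were counted by strand is not known from the sources used here, and reads of the shared part cannot be assigned to either gene. Ccdc85b itself was at 13.6, 4.88 and 6.75 CPM in WT intestine and 10.7, 10.4 and 11.0 CPM in tumours (log2 fold change 0.35, SE 0.347, edgeR adjusted p = 0.467).

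Fos, the immediate early gene that gives the family its name, was at 402, 255 and 214 CPM in WT intestine 1 to 3 and 156.5, 274 and 231 CPM in DKO tumours 1 to 3. The groups overlapped, with WT intestine 1 above all other libraries (log2 fold change -0.40, SE 0.287, edgeR adjusted p = 0.324). Without WT intestine 1 the difference was -0.09. Fosb, a second immediate early member known in neurons for its stable splice form, was at 25.0, 14.7 and 7.14 CPM against 3.81, 7.585 and 6.30 CPM. WT intestine 3 lay within the range of the tumours. Fosb had a log2 fold change of -1.40 (SE 0.452) that narrowly missed the threshold (edgeR adjusted p = 0.0503). It was called in 5 of the 13 alternatives, namely DESeq2's test (0.00679), DESeq2 size factors (0.0488), a filter of 50 counts (0.0491), no filter (0.0469) and without WT intestine 3 (0.0168).

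Fosl2 encodes FRA-2, a FOS family member whose induction is slower than that of FOS. It was at 372, 323.5 and 328 CPM in WT intestine 1 to 3 and 205, 247.5 and 220 CPM in DKO tumours 1 to 3. The groups did not overlap, and the spread within each was small (SD 26.6 and 21.6 CPM, n = 3 each). The log2 fold change was -0.61 (SE 0.149, edgeR adjusted p = 0.0195), a 1.52-fold fall. The call ended without WT intestine 2 (adjusted p = 0.0575), without DKO tumour 3 (0.0879) and under library totals (log2 fold change -0.34, 0.0886), a scaling that shifts every comparison upward, by 0.258 (log2) at the median over all genes.

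Jun encodes a JUN family protein with which FOS proteins can pair. It was at 142, 128 and 114 CPM in WT intestine 1 to 3. In DKO tumours 1 to 3 it was at 112, 73.4 and 88.9 CPM. On the TMM scale every tumour was below every WT library, by a narrow margin between DKO tumour 1 and WT intestine 3. On the TPM scale described below, which has no TMM correction, DKO tumour 1 (132.5 TPM) lay above WT intestine 1 to 3 (112.4, 125.3 and 116.5 TPM). Jun did not pass the test (log2 fold change -0.49, SE 0.178, edgeR adjusted p = 0.0723). It was called with DESeq2's test (0.0456) and without DKO tumour 1 (0.0240). Junb, which can restrain JUN activity, was at 106, 95.7 and 101 CPM against 84.3, 143 and 115.5 CPM, so the tumours lay on both sides of WT intestine (log2 fold change 0.18, SE 0.192, edgeR adjusted p = 0.508). Jund, the JUN member that is broadly expressed in resting cells, was at 280, 168 and 178 CPM against 170, 277 and 200 CPM (0.05, SE 0.256, edgeR adjusted p = 0.903). For Jund the SD within each group (61.9 and 55.3 CPM, n = 3 each) was far larger than the difference between the means (208.5 and 215 CPM). The sign turned without DKO tumour 2 for Junb (-0.01) and without DKO tumour 2 (-0.17), WT intestine 2 (-0.09) or WT intestine 3 (-0.04) for Jund. Junb shares 173 exonic bases with Prdx2 on the opposite strand, whose level was 207, 148 and 132 CPM against 147, 107 and 117 CPM (edgeR adjusted p = 0.185). Jun and Jund each overlap an antisense gene (232 and 877 shared exonic bases).

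Atf3, a stress-induced factor that can repress or activate depending on its partner, showed the smallest adjusted p of the 10 genes. It was at 86.8, 62.5 and 78.25 CPM in WT intestine 1 to 3 and 22.1, 25.6 and 21.05 CPM in DKO tumours 1 to 3. All tumours lay far below all WT libraries and close to each other (SD 2.37 CPM, n = 3). The log2 fold change was -1.73 (SE 0.165, edgeR adjusted p = 0.000532), a 3.31-fold fall, and it stayed past the threshold in each of the 13 alternatives, with values from -1.46 under library totals to -1.85 without WT intestine 2. No exon of another annotated gene overlaps those of Atf3.

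Batf, known in lymphocytes and dendritic cells where it pairs with JUN proteins and binds beside IRF4 or IRF8, was near the lower limit of measurement. It gave 16, 14 and 11 reads in WT intestine 1 to 3 and 18, 24 and 21 reads in DKO tumours 1 to 3, or 1.51, 1.10 and 0.714 CPM against 1.07, 1.61 and 1.56 CPM. The groups overlapped (log2 fold change 0.37, SE 0.375, edgeR adjusted p = 0.486), and a difference was not detectable at this depth. Batf2, an interferon-inducible relative, was at 17.3, 29.9 and 23.6 CPM against 22.3, 23.8 and 23.3 CPM (-0.03, SE 0.201, edgeR adjusted p = 0.917). WT intestine held both its lowest and its highest library, and Batf2 shares 51 exonic bases with Arl2. The BATF partners Irf4 (8.75 and 11.0 CPM on average) and Irf8 (115.5 and 92.2 CPM) did not pass the test (edgeR adjusted p = 0.518 and 0.137). Of the T cell markers, Cd3e fell (log2 fold change -1.52, SE 0.366) and Cd4 rose (0.98, SE 0.226), and the list of 5 summed to 35.6 to 79.9 CPM in WT intestine and 17.7 to 37.9 CPM in tumours. The calls of both Cd3e and Cd4 ended when either WT intestine 2 or DKO tumour 3 was left out. Macrophage and dendritic cell markers (6 genes, of which Cd68 rose, a call that was kept only without WT intestine 3 when a library was left out) summed to 102 to 135 CPM and 102 to 138 CPM. The part of these cell types in the levels of Batf and Batf2 was not tested.

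**Figure D1:**
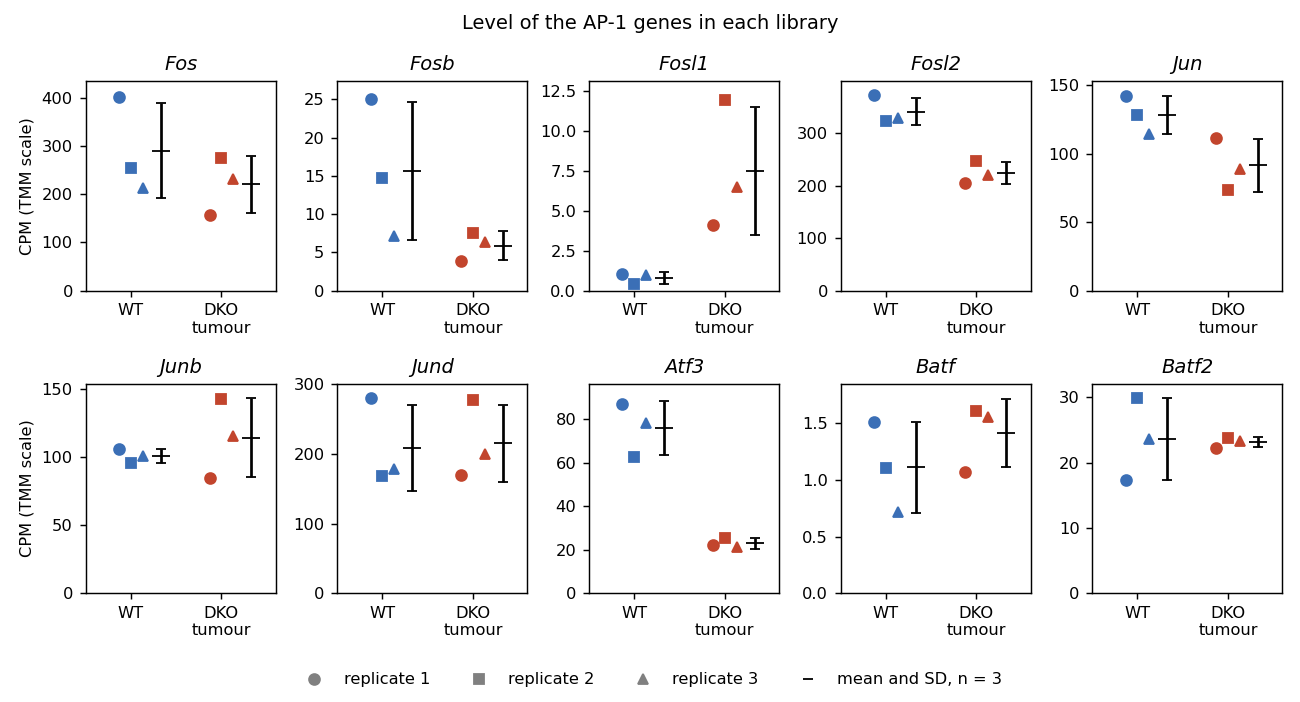
Level of each AP-1 gene (CPM on the TMM scale, each axis starting at 0) in the 3 WT intestine libraries (blue) and 3 DKO tumour libraries (red), with mean and SD beside them. Fosl1 lies at 0.393 to 1.04 CPM in WT intestine and 4.11 to 11.9 CPM in tumours, and Atf3 and Fosl2 lie lower in every tumour than in any WT library.

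**Figure D2:**
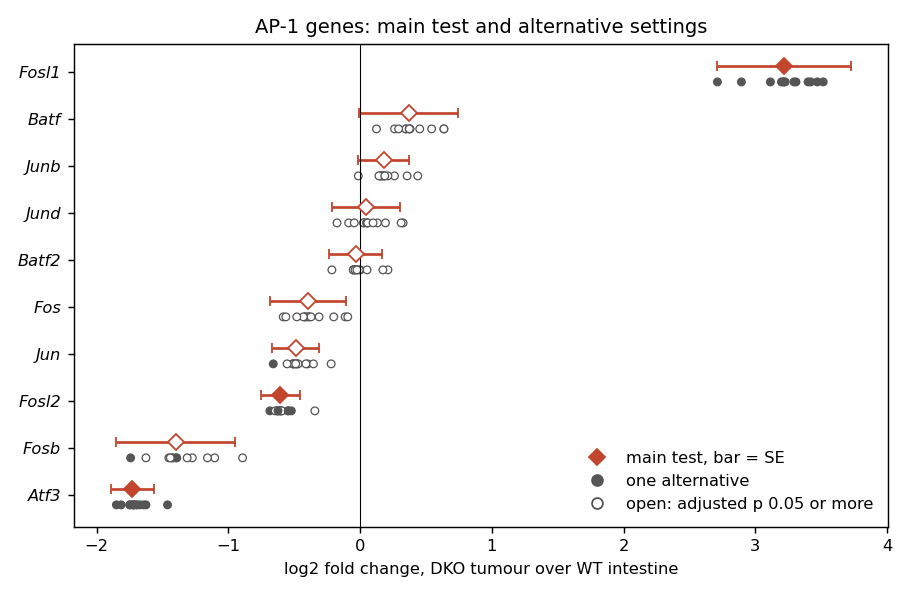
Log2 fold change of each AP-1 gene, DKO tumour over WT intestine (diamonds, bars are SE), with the value in each alternative setting beneath it (circles). Filled symbols have an adjusted p under 0.05, as Fosl1 and Atf3 do in every setting drawn, while Fosl2, Fosb and Jun change sides.

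Compared per length, on the TPM scale (counts divided by union exon length and scaled to 1000000 within a library), the order of the genes was led by Jund and Fos in both groups. TPM carries no TMM correction, so its values order the genes within a group and do not measure a difference between groups. In TPM, for example, the groups overlapped for Fosl2 (96.9 in WT intestine 1, 98.05 in DKO tumour 2). In WT intestine Jund was at 361 TPM (SD 56.1, n = 3) and Fos at 355 TPM (SD 69.2), and their libraries overlapped. Junb (129 TPM), Jun (118), Fosl2 (104) and Atf3 (103) followed, with overlap between Junb and Jun and between Fosl2 and Atf3. Batf2 (28.2 TPM), Fosb (7.06), Batf (2.27) and Fosl1 (1.15) came last, each below its predecessor in every library. In tumours the order began in the same way, with Jund at 492 TPM, Fos at 357 TPM (SD 98.6), Junb at 189 TPM, Jun at 109 TPM and Fosl2 at 88.1 TPM. Jund overlapped Fos, and Jun overlapped Fosl2. Atf3 (40.5 TPM) and Batf2 (34.9 TPM) were close to each other without overlap. Fosl1 stood at 14.1 TPM (SD 7.63), above Batf (3.83 TPM) and Fosb (3.60 TPM), which overlapped. Fosl1 was thus the lowest of the 10 genes in WT intestine and the eighth in tumours, still far below Fos.

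Within the FOS family, Fos transcripts made up 79.9, 75.1 and 71.9% of the summed per-length level in WT intestine 1 to 3 and 73.7, 78.1 and 78.5% in DKO tumours 1 to 3. These shares overlap between the groups. Fosl1 held 0.239, 0.134 and 0.379% against 2.24, 3.94 and 2.56%, and Fosl2 17.97, 23.1 and 26.8% against 23.4, 17.1 and 18.2%. Fosb held 1.88, 1.63 and 0.905% against 0.676, 0.814 and 0.806%. The family share of Fosl1 was higher and that of Fosb lower in every tumour than in any WT library, and that of Fosl2 overlapped. Within the JUN family, Jund held 64.9, 55.2 and 57.3% against 58.7, 66.1 and 60.5%, and Jun 17.2, 22.03 and 19.25% against 20.2, 9.17 and 14.1%. All shares of the JUN family overlapped between the groups. With the length of the longest transcript in place of union exons, the mean share of Fos was 70.0% in WT intestine and 71.9% in tumours, and that of Fosl1 0.226 and 2.67%.

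**Figure D3:**
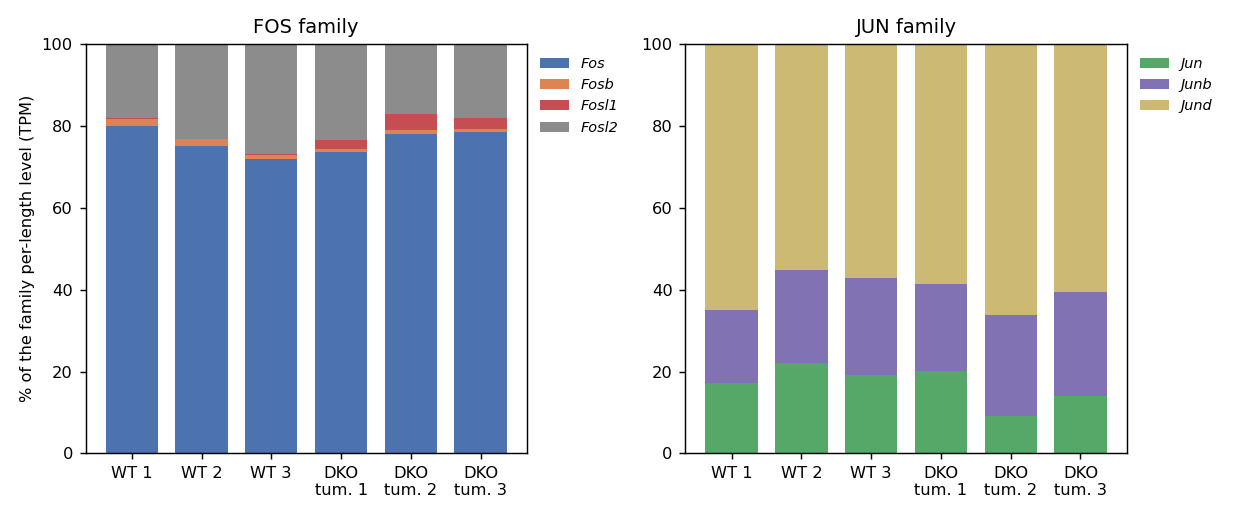
Share (%) of the per-length level (TPM) that each gene holds of the summed FOS family (left) and JUN family (right) in each of the 6 libraries. Fos and Jund hold the most in every library, and Fosl1 is visible in the 3 tumours only, at 2.24 to 3.94%.

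Within each group most AP-1 genes had the same highest library. Of the 10 genes, 9 had their highest WT level in WT intestine 1, the exception being Batf2, and 9 had their highest tumour level in DKO tumour 2, the exception being Jun. Over all genes tested, WT intestine 1 was the highest WT library for 42.3% and DKO tumour 2 the highest tumour for 37.3%. The pattern in WT intestine depended on scaling, and under library totals 4 of the 10 genes were highest in WT intestine 1 (25.8% of all genes tested), whereas 9 were again highest in DKO tumour 2 (36.6%). Among other immediate early genes, 17 of 23 were highest in WT intestine 1 among the WT libraries (13 under library totals) and 17 of 23 in DKO tumour 2 among the tumours (17 under library totals). All 5 epithelial markers were highest in WT intestine 1 (3 of 5 under library totals) and in DKO tumour 2 (5 of 5 under library totals), and they summed to 13070, 10960 and 9947 CPM in WT intestine 1 to 3 and 6377, 8594 and 7484 CPM in DKO tumours 1 to 3. Jun ran against this order among the tumours. The part of epithelial content in the spread of the AP-1 genes was not tested.

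**Figure D4:**
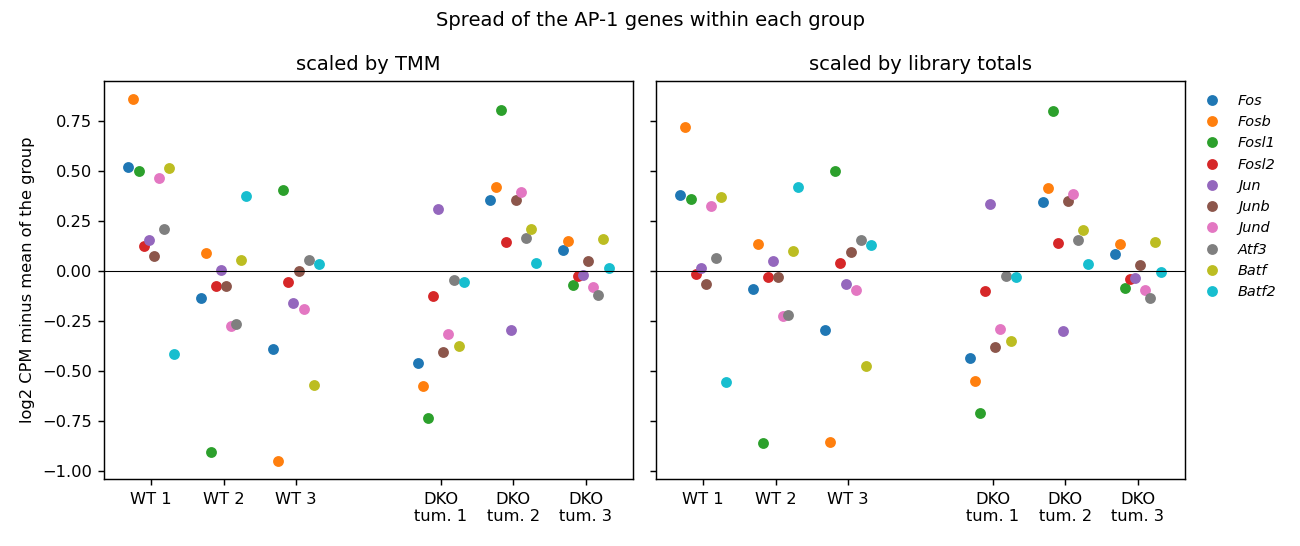
Log2 CPM of each AP-1 gene minus the mean of its own group, by library, with TMM scaling (left) and library totals (right). In DKO tumour 2, 9 of the 10 genes are highest among the tumours under both scalings, whereas the lead of WT intestine 1 in 9 genes drops to 4 under library totals.

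Genes known as targets of AP-1 were mostly higher in DKO tumours. Of 20 tested genes of the list, 13 rose and 0 fell, against 15.9% and 13.8% of all genes tested. In edgeR 1 gene was lower at an unadjusted p under 0.05, and DESeq2 called 0 lower. The median log2 fold change of the list was 1.90. Mmp3 and Timp1 had fewer than 10 counts in every WT library and passed the filter through the tumours. Of the 18 others, 11 rose (61.1%, against 14.8% of all genes with 10 or more counts in some library of each group), with a median of 1.64. The 18 still hold genes that met the filter only with the tumours counted. In WT intestine 1 to 3, Il11 had 6, 7 and 11 counts and Sprr1a 6, 55 and 90, and both rose. Spp1 (11, 6 and 30 counts) and Ccl2 (0, 7 and 10) did not pass the test. Il6 and Ivl had too few counts to be tested. The list was written with results of these data known and is no independent evidence of a direction.

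Plaur, the urokinase receptor, was at 5.01, 4.48 and 5 CPM in WT intestine 1 to 3 and 41.6, 103.5 and 70.25 CPM in DKO tumours 1 to 3 (log2 fold change 3.89, SE 0.339, edgeR adjusted p = 0.000355). Its order among the tumours was that of Fosl1, an order that most of the 10 AP-1 genes and the summed epithelial markers also had. Plau, which encodes urokinase itself, was at 5.575, 10.85 and 13.4 CPM against 21.9, 50.3 and 35.5 CPM (1.84, SE 0.381). Mmp10, the protease stromelysin 2, rose by 2.27 (SE 0.163), Mmp3 by 3.46 (SE 0.388) and Mmp13 by 1.45 (SE 0.277). Cd44, the hyaluronan receptor, rose by 2.25 (SE 0.170), and Il11, a cytokine of the interleukin 6 family, by 3.83 (SE 0.318), from 0.611 to 8.86 CPM on average. Sprr1a, a cornified envelope protein, went from 0.567, 4.33 and 5.84 CPM to 20.5, 47.5 and 29.9 CPM. The genes below zero that did not pass the test were Vegfa, Hbegf and Fasl, and Hbegf, an EGF receptor ligand, was at 137 CPM in WT intestine 1 against 38.6 to 55.5 CPM in the other libraries. Fibroblast markers (5 of 5 rose) summed to 258 to 389 CPM in WT intestine and 822 to 1232 CPM in tumours. Neutrophil markers (4 of 4 tested rose, 2 without DKO tumour 3) summed to 2.08 to 4.03 CPM and 18.3 to 24.4 CPM, and S100a8 and S100a9, at 0 reads in WT intestine 2 and fewer than 10 in every WT library, passed the filter through the tumours. Both cell types can express matrix proteases and Plaur, and their part in these rises was not tested.

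Immediate early genes other than AP-1 went both ways. Of 23 tested genes, 7 rose and 4 fell, against 15.9% and 13.8% of all genes tested, and the median log2 fold change was 0.35. Nr4a1, an orphan nuclear receptor, was at 4.25, 4.33 and 4.09 CPM in WT intestine 1 to 3 and 21.8, 33.2 and 22.2 CPM in DKO tumours 1 to 3 (2.61, SE 0.220, edgeR adjusted p = 0.000308). Plk2, a polo-like kinase, rose by 1.85 (SE 0.202) and Ier3 by 1.62 (SE 0.213). Zfp36, which encodes the mRNA decay factor tristetraprolin, was at 253, 230 and 251 CPM against 106, 129 and 118 CPM (-1.06, SE 0.137, edgeR adjusted p = 0.00164). Egr1, transcribed through the same serum response factor as Fos, was at 17.8, 25.4 and 52.5 CPM against 27.8, 46.2 and 27.8 CPM, and Dusp1 at 19.0, 22.5 and 25.2 CPM against 19.0, 35.0 and 25.0 CPM. Neither passed the test (edgeR adjusted p = 0.889 and 0.461). Arc had fewer than 10 counts in every WT library and passed the filter through the tumours. Without WT intestine 2 there were 3 rises and 2 falls, without DKO tumour 3 there were 4 and 1, without WT intestine 1 there were 9 and 2, without WT intestine 3 there were 4 and 2, and without DKO tumour 2 there were 4 and 3.

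**Figure D5:**
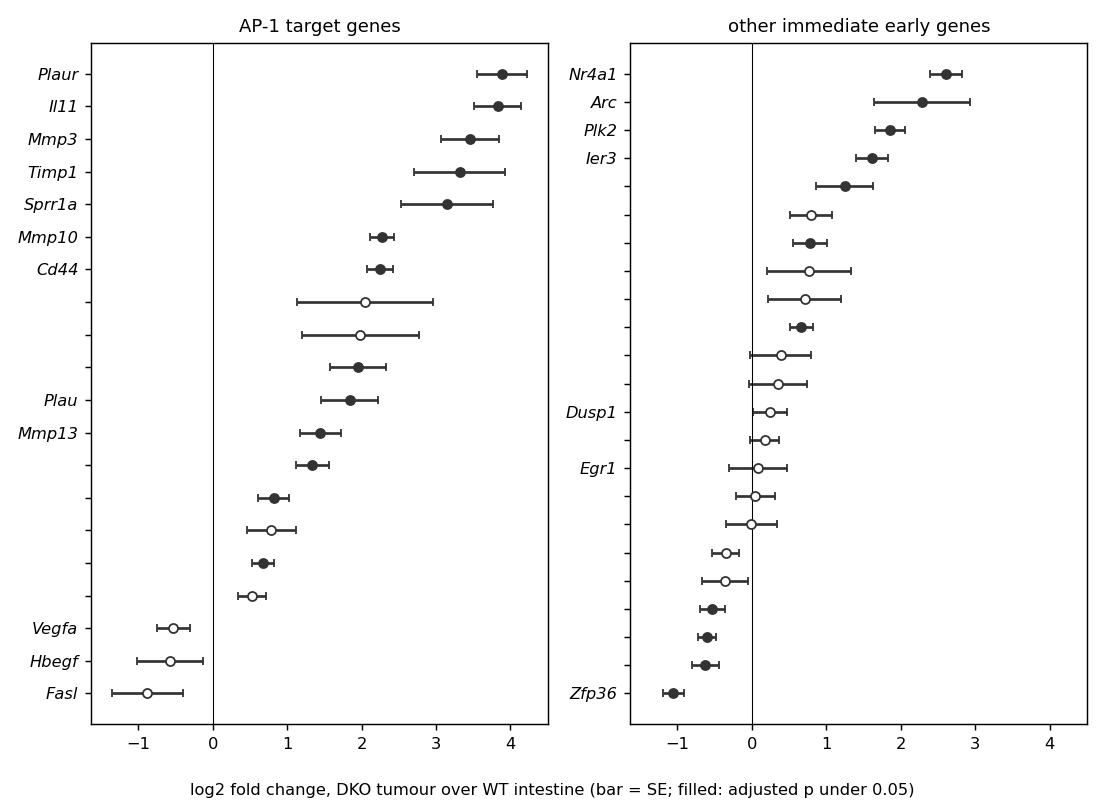
Log2 fold change, DKO tumour over WT intestine, of each tested AP-1 target gene (left) and other immediate early gene (right), 1 gene per line with those described in the text labelled (points, bars are SE, filled where the adjusted p is under 0.05). In the target list 13 of 20 genes rose and 0 fell, whereas the immediate early list holds called genes on both sides, from Nr4a1 at 2.61 to Zfp36 at -1.06.

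Among other factors with a basic leucine zipper, 4 of 18 rose and 5 fell, against 15.9% and 13.8% of all genes tested, with a median log2 fold change of -0.05. The MAF and BACH proteins bind elements that contain an AP-1 core. Maf was at 408, 501 and 522 CPM in WT intestine 1 to 3 and 125, 99.1 and 100.2 CPM in DKO tumours 1 to 3 (-2.14, SE 0.177, edgeR adjusted p = 0.000288). Bach1, a heme-regulated repressor, was at 256, 221 and 206 CPM against 74.0, 123 and 83.1 CPM (-1.28, SE 0.213, edgeR adjusted p = 0.00441). Bach2 (-1.18, SE 0.250) and Ddit3 (-0.64, SE 0.161) also fell. Bach2 was not called without DKO tumour 3 (edgeR adjusted p = 0.0536), and Ddit3 not without that tumour, DKO tumour 2 or WT intestine 2. Jdp2, a JUN dimerisation partner, was at 4.25, 2.60 and 3.44 CPM against 5.42, 13.7 and 7.63 CPM (1.38, SE 0.372). Its tumours stood in the order of Fosl1, which was also that of most of the 10 AP-1 genes. Atf5 (1.15), Creb5 (1.77) and Nfe2l1 (0.45) rose as well, Creb5 having fewer than 10 counts in every WT library. None of these 4 rises was called without DKO tumour 3 or without WT intestine 3, and 1 was called without DKO tumour 2 or without WT intestine 2. Batf3, the relative of Batf in dendritic cells, was at 1.98, 1.89 and 1.43 CPM against 1.43, 2.35 and 2.15 CPM.

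Of 24 kinases and regulators upstream of AP-1, 2 rose and 2 fell, against 15.9% and 13.8% of all genes tested, with a median log2 fold change of -0.03. The JNK genes Mapk8 (98.35 and 93.5 CPM on average) and Mapk9 (57.9 and 58.0 CPM) and the ERK gene Mapk3 (328 and 282 CPM) did not pass the test (edgeR adjusted p = 0.733, 0.985 and 0.337). Elk3, an ETS factor of the serum response complex that endothelium and fibroblasts also express, was at 9.17, 8.49 and 8.90 CPM against 32.3, 29.6 and 28.5 CPM (1.77, SE 0.141, edgeR adjusted p = 0.000267). Rps6ka3, the kinase RSK2, rose by 0.84 (SE 0.248). Map3k1, a kinase of the JNK cascade, fell by 0.51 (SE 0.128), and Dusp16, a JNK phosphatase, by 0.69 (SE 0.164). The calls of Rps6ka3, Map3k1 and Dusp16 each ended when either WT intestine 2 or DKO tumour 3 was left out, those of Rps6ka3 and Dusp16 also without DKO tumour 2, and both falls ended under library totals. Endothelial markers (3 of 4 rose) summed to 35.8 to 50.3 CPM in WT intestine and 68.3 to 107.5 CPM in tumours, and their part in the rise of Elk3 was not tested. Smooth muscle markers (4 of 4 fell) and B and plasma cell markers (1 of 3 tested rose) summed to 466 to 762 and 17.8 to 24.4 CPM in WT intestine and to 245 to 393 and 14.5 to 36.6 CPM in tumours. The smooth muscle falls numbered 0 without DKO tumour 3 (4 at an unadjusted p under 0.05 in edgeR, and DESeq2's test on all libraries called 4), 1 without DKO tumour 2, 2 without WT intestine 1 or WT intestine 3, and 1 under library totals. The B and plasma cell rise, that of Cd79a, was called only without DKO tumour 2 when a library was left out.

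The genes whose profile was most like that of Fosl1 were sought among the 10199 tested genes that averaged 100 counts or more, by the mean absolute difference of log2 CPM (pseudocount 0.1) over the 6 libraries after each gene was centred. The nearest was Pacsin3, an endocytic adaptor, with a mean difference of 0.265, at 1.98, 1.10 and 2.08 CPM in WT intestine 1 to 3 and 10.3, 15.0 and 14.7 CPM in DKO tumours 1 to 3. Fgfr4, a fibroblast growth factor receptor (0.270), Rnf157, a ubiquitin ligase (0.280), Pear1, an EGF-repeat receptor of platelets and endothelium (0.296), and St6galnac6, a sialyltransferase (0.298), came next. All 5 were lowest in WT intestine 2 or 3 among the WT libraries and rose in tumours by 2.72 to 3.41 on the log2 scale. The genes were picked by likeness to Fosl1 over these same libraries. A similar rise therefore follows from the choice and is no separate result.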

How the data were processed

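The authors deposited raw counts per gene symbol, 1 column per library, and the count columns were matched to samples by title. The sheet's name speaks of normal tissue of DKO mice, but its columns are headed as DKO tumours, and the columns were followed. Per the submitters' processing notes, STAR, DESeq2 and mm10 were used, without versions or roles. How reads were counted, by which annotation and strand setting, is not given in the sources used here. Of 23420 rows, 27 with a spreadsheet date in place of a symbol (0.218 to 0.241% of a library) were left out.

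Genes with at least 10 counts in at least 3 libraries (13866) were tested with edgeR 4.0.16 (quasi-likelihood, TMM scaling, R 4.3.3), with Benjamini-Hochberg adjustment over all of them and a threshold of 0.05. The SE is the size of the log2 fold change divided by the root of the F statistic. The scripts were tested on simulated data. The 13 alternatives changed the scaling (DESeq2 size factors, library totals or upper-quartile factors), the test (DESeq2 1.42.0, together with its own size factors) or the low-count filter (none, or 50 counts), added a replicate block, or left out 1 library. Library totals for the order of libraries within a group were tried only after seeing the data.

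Lengths and coordinates are from GENCODE M21 (the same build), which matched 21759 of 23393 symbols. Promoters are from RefSeq (GRCm38.p6). Named were all 10 AP-1 genes, Prkci and Prkcz, up to 4 genes of each list with the smallest adjusted p, and the 5 genes nearest to the called AP-1 gene with the largest change. Other list genes named, and Ccdc85b, Prdx2 and Arl2, were chosen after their values were seen. The members and lists were chosen with earlier results of these data known. Adgre1 was found under its older symbol Emr1, a match made after seeing the table, and Ly6g was not found under its symbol. Some list genes are not reported here.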

Additional observations from a re-analysis of the deposited data

How the results depend on the processing

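Fosl1 rose and Atf3 fell in all 13 alternatives. The AP-1 genes that fell numbered 2 in the main test, 4 with DESeq2's test, 1 under library totals and 1 to 3 when a library was left out. Over all genes, the 2211 rises and 1911 falls became 3779 and 1065 under library totals, and 1159 to 2368 and 883 to 2129 when a library was left out (the lowest without WT intestine 2 for rises and without DKO tumour 3 for falls). Under library totals the upstream list had 5 rises and 0 falls (1 gene lower at an unadjusted p under 0.05 in edgeR, and 3 falls called by DESeq2's test) and the immediate early list 1 fall, and upper-quartile factors gave the upstream list 4 rises. Leaving out a library gave 0 to 5 rises and 3 to 6 falls in other basic leucine zipper factors (0 rises without DKO tumour 3 or WT intestine 3, where 4 genes were higher at an unadjusted p under 0.05 in edgeR; DESeq2's test on all libraries called 4), 1 to 4 rises and 0 to 3 falls in the upstream list, 3 to 9 rises and 1 to 3 falls in immediate early genes, and 11 to 14 rises among AP-1 targets. The cause of these changes was not tested. The number of AP-1 genes highest in WT intestine 1 went from 9 to 4 under library totals. Replicate numbers gave no sign of pairing the libraries, with deviations from the group means correlated at 0.0152, 0.0104 and -0.0304 for numbers 1 to 3. These correlations cannot exclude pairing, since the deviations are centred over only 3 libraries per group. With a replicate block 1 AP-1 gene fell (Atf3, while Fosl2 had an edgeR adjusted p of 0.0580), 1 other basic leucine zipper factor rose, 2 immediate early genes fell and 1788 genes rose and 1508 fell in all. Depth limits Fosl1 in WT intestine (5 to 15 reads) and Batf in every library (11 to 24 reads), and the filter of 50 counts left Batf without a value.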

Other observations

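Single libraries stood apart in several related genes that were too low or too variable for a call. Nfe2l3, a basic leucine zipper factor of the NRF family, was at 10.3 CPM in DKO tumour 1 and at 0.283 to 1.41 CPM in the other 5 libraries, and it was not tested because it missed the filter. Spp1, which encodes osteopontin, was at 11.7 CPM in DKO tumour 1 and at 0.472 to 1.95 CPM elsewhere. Plk3 was at 50.5 CPM in WT intestine 1 against 15.8 and 21.4 CPM in the other WT libraries, and Rhob at 160 CPM against 87.2 and 64.9 CPM. In DKO tumours 1 to 3, Plk3 was at 27.7, 47.0 and 39.6 CPM and Rhob at 80.2, 134.7 and 95.9 CPM. For these genes WT intestine 1 therefore stood apart within its own group only.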
